A study of Mus musculus with 38 samples.

Results

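The genes described here make up the machinery that displays peptides on major histocompatibility complex (MHC) class I molecules, together with the immunoproteasome that helps to cut those peptides. They were chosen by symbol from a list of 10 genes: B2m, H2-K1, H2-D1, Tap1, Tap2, Tapbp, Psmb8, Psmb9, Psmb10 and Nlrc5. Of these, 8 were found among 19218 genes in the count table, and all 8 passed the filter on low counts in every comparison. H2-D1 and Psmb9 were matched by neither symbol nor identifier and are not analysed here. Expression was measured by bulk sequencing of messenger RNA from mouse tail skin in 38 libraries of 6 groups. The series asks how skin of a vitiligo model differs from normal skin, whether depleting gut microbes alters it, and what hippuric acid, a metabolite derived from gut microbes, does to skin.

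The no_induction group held 9 libraries of wild type mice, and the vitiligo group held 9 libraries of mice given vitiligo induction. The no_induction_ABX group held 6 libraries of wild type mice treated with ABX, the treatment used to deplete gut microbes, and the vitiligo_ABX group held 6 libraries with both induction and ABX. The vehicle group held 3 libraries of wild type mice injected with vehicle into the peritoneum, and the hippuric_acid group held 5 libraries of wild type mice injected with hippuric acid by the same route. The labels leave out strain, age, sex, the agents in ABX, the doses and the way vitiligo was induced. They do not say whether each library is 1 mouse, and p-values therefore reflect only how far these libraries scatter, which may be partly technical.

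In most nucleated cells, the proteasome cuts worn or foreign proteins into peptides, and the transporter TAP carries them into the endoplasmic reticulum. There tapasin and other chaperones load them onto a heavy chain paired with beta-2-microglobulin, and the complex travels to the cell surface, where cytotoxic T cells inspect it. Interferons raise the expression of most of these genes, in part through the coactivator NLRC5, and exchange the catalytic subunits of the standard proteasome for those of the immunoproteasome. In vitiligo, cytotoxic T cells recognise pigment cell peptides shown in this way.

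Promoters are shown for 4 members because they stand for the parts of the pathway that the results contrast: the light and heavy chain of the class I molecule, the peptide transporter, and the immunoproteasome. Each sequence is the 250 bases before the gene's start in RefSeq annotation of build GRCm38.p6, in the direction of transcription. Capitals mark matches, on either strand, to the core of the interferon-stimulated response element (GAAA, any 2 bases, then GAAA), to the interferon gamma activated site GAS (TTCNNNGAA) and to the NF-kappaB consensus. Windows were found for 8 of the 10 listed genes, and none was found for Tap2 or Nlrc5. B2m lies at chr2:122147437-122147686 on the plus strand, H2-K1 at chr17:34000348-34000597 on the minus strand, Tap1 at chr17:34187306-34187555 on the plus strand and Psmb8 at chr17:34197945-34198194 on the plus strand.
B2m: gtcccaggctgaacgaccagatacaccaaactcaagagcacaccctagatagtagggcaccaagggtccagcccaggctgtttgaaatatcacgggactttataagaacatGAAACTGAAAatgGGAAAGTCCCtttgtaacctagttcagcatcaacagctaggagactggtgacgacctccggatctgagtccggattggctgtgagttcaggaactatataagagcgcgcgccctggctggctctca
H2-K1: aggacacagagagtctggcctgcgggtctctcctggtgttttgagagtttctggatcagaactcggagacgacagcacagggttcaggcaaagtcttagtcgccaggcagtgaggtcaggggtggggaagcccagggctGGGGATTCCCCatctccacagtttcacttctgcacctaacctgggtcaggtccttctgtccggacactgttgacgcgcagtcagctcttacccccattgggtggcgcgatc
Tap1: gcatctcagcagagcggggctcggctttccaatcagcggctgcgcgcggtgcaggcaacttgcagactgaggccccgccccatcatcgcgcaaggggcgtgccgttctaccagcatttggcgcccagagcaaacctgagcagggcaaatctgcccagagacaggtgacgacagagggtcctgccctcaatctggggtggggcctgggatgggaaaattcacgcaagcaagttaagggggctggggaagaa
Psmb8: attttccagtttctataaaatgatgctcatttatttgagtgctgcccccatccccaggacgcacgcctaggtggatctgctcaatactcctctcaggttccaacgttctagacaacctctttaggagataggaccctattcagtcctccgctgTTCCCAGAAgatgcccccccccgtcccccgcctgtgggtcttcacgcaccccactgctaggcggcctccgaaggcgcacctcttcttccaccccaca

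B2m held the response element core starting 139 bases before its start, and an NF-kappaB match that began 126 bases before it and overlapped no other motif. In H2-K1 the NF-kappaB match ran over overlapping positions from 111 bases before the start, and Psmb8 held a GAS match from 97 bases before the start. H2-K1 had a second window, chr17:34000334-34000583, which is not printed. In it the same match began 125 bases before the start. The Tap1 window held none of these 3 motifs, and it shares 225 bases with the window of Psmb9, which is read from the other strand. Over 32817 windows of the same length, the response element core was found in 2.97%, GAS in 7.01% and the NF-kappaB consensus in 7.25%. These matches describe letters in the window and are not measured binding sites. Psmb9, Tap1, Psmb8 and Tap2 are neighbouring protein-coding genes of the MHC region, in that order. Tap1 and Psmb9 start close together on opposite strands and the use of strand in counting was not given, so reads of Tap1 may in part come from its neighbour. Class I heavy chain genes are close copies of each other, so reads of H2-K1 may also be shared. Counts that were not whole, a sign of shared reads, occurred in 13 libraries for Tap1, 6 for H2-K1, 4 for Tapbp and in none for the other 5 members.

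Library totals ran from 15341831 to 27920844 counts. The lowest count of any member was 77, for Nlrc5, and the lowest for B2m was 3659. Keratinocyte markers, 6 of 7 in the table, summed to between 11457 and 44900 CPM (counts scaled to a common library total) over all libraries. Gastrointestinal transcripts exceeded 10 times the median in no_induction library 011 (213.8 CPM) and vitiligo library 000 (84.8 CPM). Y-linked transcripts were present in no_induction libraries 011 and 012 and vehicle library 001, and the other 35 libraries held at most 0.315 CPM. Results that change without these libraries are given with them below. In bulk skin, fewer cells of a type and less RNA per cell cannot be told apart.

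To compare genes with each other, CPM were divided by exon length. On that scale, B2m, the light chain that every classical class I molecule carries, averaged 410.1 CPM per kilobase over the 38 libraries. H2-K1, a classical heavy chain, averaged 98.6, and Tapbp, which encodes tapasin, averaged 34.9. The immunoproteasome genes Psmb10 and Psmb8 averaged 10.1 and 7.02, the transporter genes Tap2 and Tap1 averaged 7.78 and 5.68, and Nlrc5 averaged 1.24 CPM per kilobase. Among the 8 measured members, the light chain therefore stood far above the others and the coactivator stood lowest.

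**Figure D1:**
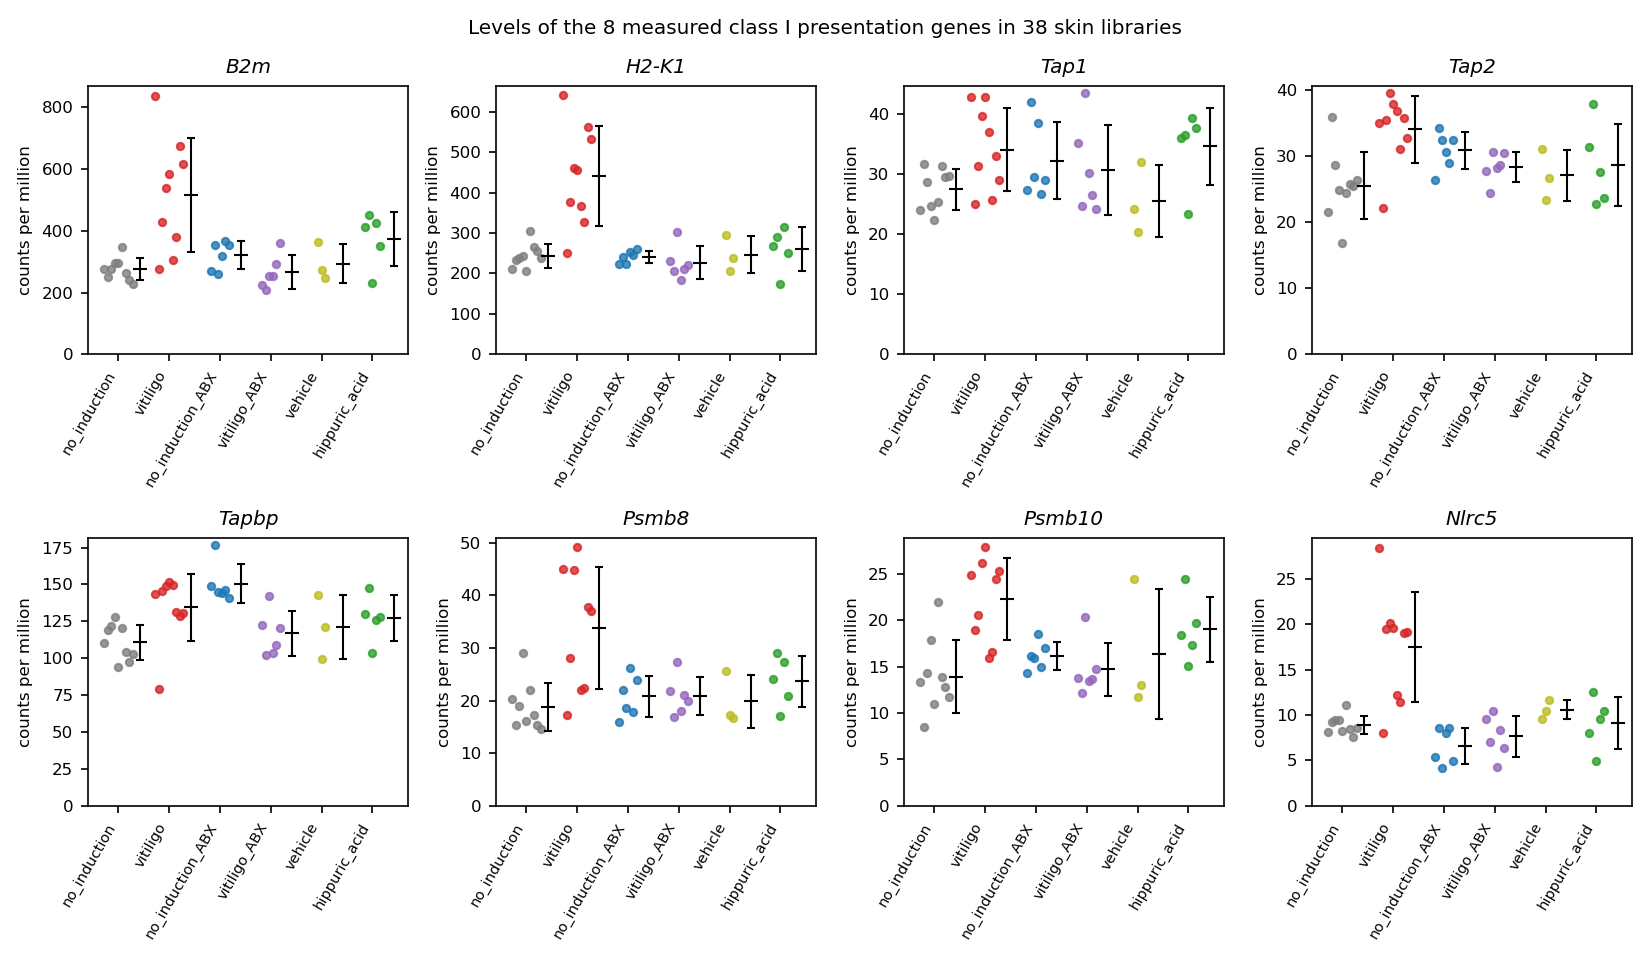
Level of each measured member in CPM (vertical axis, from 0) in each library (points) of the 6 groups (horizontal axis), with the group mean and SD as a black bar beside the points. B2m, H2-K1, Tap2, Psmb8, Psmb10 and Nlrc5 reached their highest values in vitiligo libraries, while Tapbp did so in a no_induction_ABX library and Tap1 in a vitiligo_ABX library.

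Vitiligo induction was first compared with no induction, which asks how the model changes skin. The class I molecule, the immunoproteasome and the coactivator stood higher in the vitiligo libraries, by 1.63-fold to 1.99-fold, and the transporter and tapasin by 1.23-fold to 1.35-fold. Of the 8 members, 6 rose and none fell (edgeR adjusted p under 0.05 over all genes tested). Among all 13826 genes tested, 7.74% were called, 5.27% of the tested genes upward. The median log2 fold change was 0.79 over the members and 0.01 over all genes.

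B2m measured 227.4, 277.7 and 347.4 CPM (lowest, median and highest) in the no_induction libraries. In the vitiligo libraries these values were 275.6, 537.6 and 838.1 CPM. All 9 vitiligo libraries lay above the no_induction mean, although the lowest of them fell inside the range of the controls. The log2 fold change was 0.93 ± 0.18 (SE, n = 9 and 9, edgeR adjusted p = 0.00223).

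H2-K1 ran from 205.9 CPM through a median of 238.1 to 304.9 without induction. With induction it ran from 250.7 through 455.0 to 640.0 CPM. Again 9 of 9 induced libraries exceeded the control mean and the ranges overlapped at their edges. The rise was 0.88 ± 0.14 on the log2 scale (edgeR adjusted p = 0.00061).

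Psmb8, the immunoproteasome subunit that takes the place of Psmb5, measured 14.6, 17.3 and 29.1 CPM (lowest, median, highest) in no_induction libraries. Vitiligo libraries gave 17.3, 37.1 and 49.3 CPM, and 8 of 9 were above the control mean. Its log2 fold change was 0.87 ± 0.19 (edgeR adjusted p = 0.00784). Psmb10, which replaces Psmb7, went from 8.50, 13.3 and 21.98 CPM to 15.96, 24.4 and 27.9 CPM. It rose by 0.70 ± 0.16 (edgeR adjusted p = 0.00843), with 9 of 9 libraries above the control mean and overlapping ranges. Both immunoproteasome genes therefore moved with the class I molecule.

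Nlrc5, the coactivator of class I genes, measured 7.62, 8.54 and 11.1 CPM without induction and 8.01, 19.2 and 28.3 CPM with it. The no_induction libraries were tightly grouped, and 8 of 9 vitiligo libraries lay above their mean. Its log2 fold change of 1.00 ± 0.18 was the largest of the 8 (edgeR adjusted p = 0.00131).

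The transporter and tapasin genes had the smaller log2 fold changes, and no test compared them with the other members. Tap2, 1 of the 2 chains of the transporter, measured 16.9, 25.5 and 35.9 CPM in controls and 22.2, 35.5 and 39.5 CPM in vitiligo libraries, a rise of 0.44 ± 0.12 (edgeR adjusted p = 0.034). This call was lost when any 1 of 9 libraries was left out, namely no_induction 001, 021, 022 or 023 or vitiligo 000, 006, 039, 047 or 260 (adjusted p up to 0.0652), and without the gastrointestinal libraries (adjusted p = 0.0779), without those with Y-linked transcripts (adjusted p = 0.0595) and with 1 surrogate variable in the fit (adjusted p = 0.148). Tap1, the other chain, did not pass the test (0.33 ± 0.11, adjusted p = 0.071, 95% interval 0.10 to 0.57). Tapbp did not pass it either (0.30 ± 0.10, adjusted p = 0.0764, 95% interval 0.08 to 0.52). Without vitiligo library 001 all 8 members passed, with Tap1 at 0.38 (adjusted p = 0.0176) and Tapbp at 0.38 (adjusted p = 0.00135). Tap1 also passed without vitiligo 063, and Tapbp without no_induction 005. In a fit of all 38 libraries Tapbp passed (0.28, adjusted p = 0.0463), which made 7 members, and with limma-voom all 8 passed. Vitiligo library 001 held the lowest value of its group for 7 of the 8 members.

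The ranges of the groups overlapped for every member, as they did for all but 0.774% of genes tested. No one library was needed for the calls of B2m, H2-K1, Psmb8, Psmb10 and Nlrc5: with each of the 18 libraries left out in turn, their adjusted p stayed at 0.0207 or lower.

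**Figure D2:**
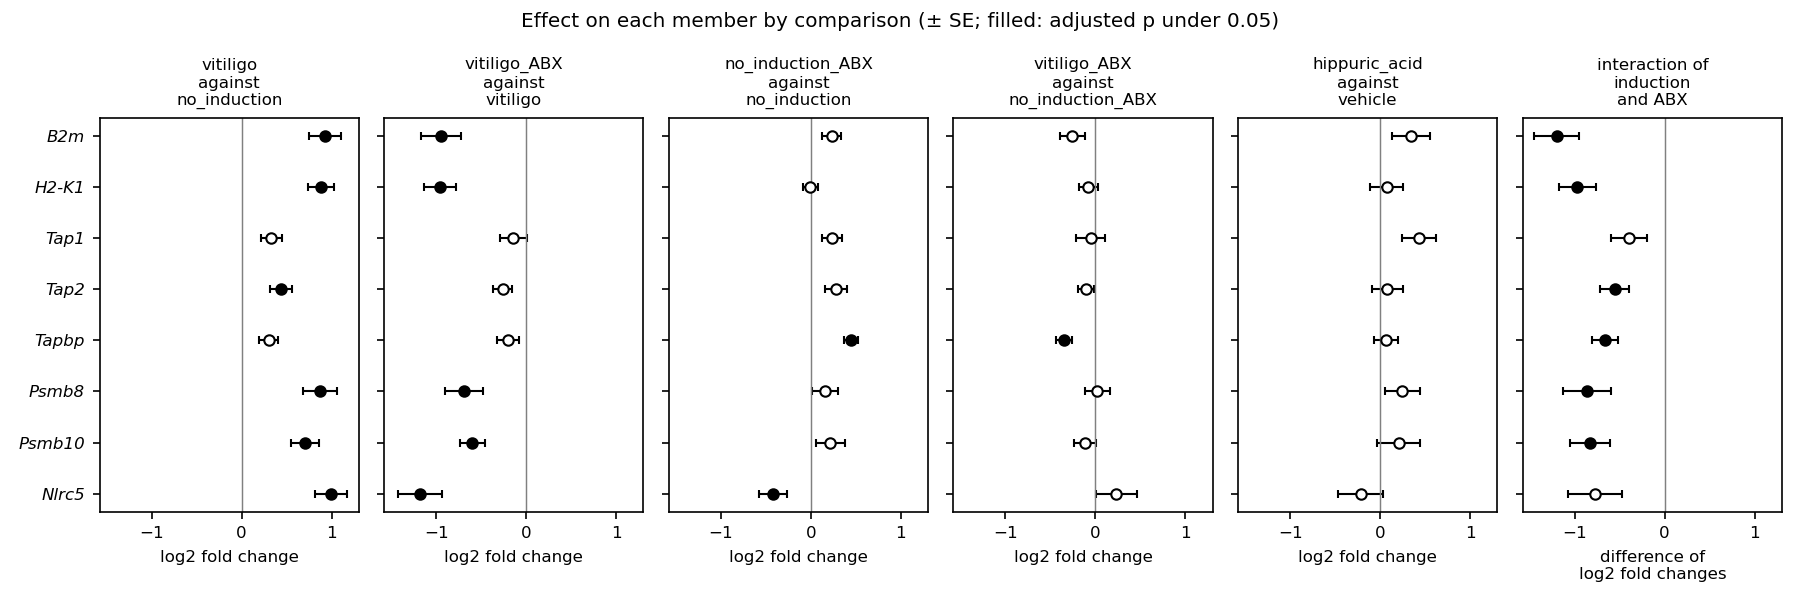
Log2 fold change (horizontal axis, ± SE) of each member (vertical axis) in the 5 comparisons of groups, and the interaction as a difference of log2 fold changes. Filled points have an edgeR adjusted p under 0.05: 6 in vitiligo against no_induction, 5 in vitiligo_ABX against vitiligo, 2 in no_induction_ABX against no_induction, 1 in vitiligo_ABX against no_induction_ABX, none in hippuric_acid against vehicle and 6 in the interaction.

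Other genes of the pathway were read from lists. Of 13 other class I heavy chains and related chains tested, 8 rose with induction and none fell (median log2 fold change 0.63). Cd1d1, which presents lipids, rose by 1.45 ± 0.17 (edgeR adjusted p = 4.39e-05) and the heavy chain gene H2-Q4 of the Qa region by 1.10 ± 0.16 (adjusted p = 0.000158). H2-Q7 rose by 1.49 ± 0.25 (adjusted p = 0.000768) and H2-T22 by 0.63 ± 0.15 (adjusted p = 0.0133), both nonclassical heavy chains. Of the genes for peptide loading and trimming, 1 of 7 rose: Erap1, the peptidase that trims peptides to length (0.32 ± 0.09, adjusted p = 0.0391).

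A list of 15 constitutive proteasome genes held core subunits, of which the alpha subunits are shared with the immunoproteasome, and the assembly factor Pomp. None of the 15 passed the edgeR test, and none had an unadjusted p under 0.05 (median log2 fold change 0.01, range -0.06 to 0.07). Psmb5, the standard counterpart of Psmb8, averaged 99.2 ± 11.4 CPM without and 98.6 ± 13.8 CPM with induction (SD, n = 9 each). Psmb7, the counterpart of Psmb10, averaged 157.3 ± 17.4 and 155.3 ± 15.8 CPM. None of the 4 proteasome activator genes passed, while 3 had an unadjusted edgeR p under 0.05, as had 3658 of all 13826 genes tested. Psme1 and Psme2, whose products form the activator induced by interferon gamma, had log2 fold changes of 0.15 ± 0.06 (adjusted p = 0.103) and 0.20 ± 0.08 (adjusted p = 0.1).

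None of the 8 genes whose products share promoters with NLRC5, such as Rfx5 (-0.18 ± 0.10, adjusted p = 0.231), passed in edgeR, and none had an unadjusted p under 0.05. Of 17 interferon receptors and signalling genes, 3 rose: Irf7, a regulator of type I interferon responses (1.21 ± 0.32, adjusted p = 0.0235), Ifngr1, the ligand-binding chain of the interferon gamma receptor (0.52 ± 0.14, adjusted p = 0.0303), and Irf8 (0.74 ± 0.22, adjusted p = 0.0449). Interferon transcripts themselves were near the limit of detection. The 6 interferon genes in the table summed to at most 0.273 CPM in any vitiligo library and none was tested.

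**Figure D3:**
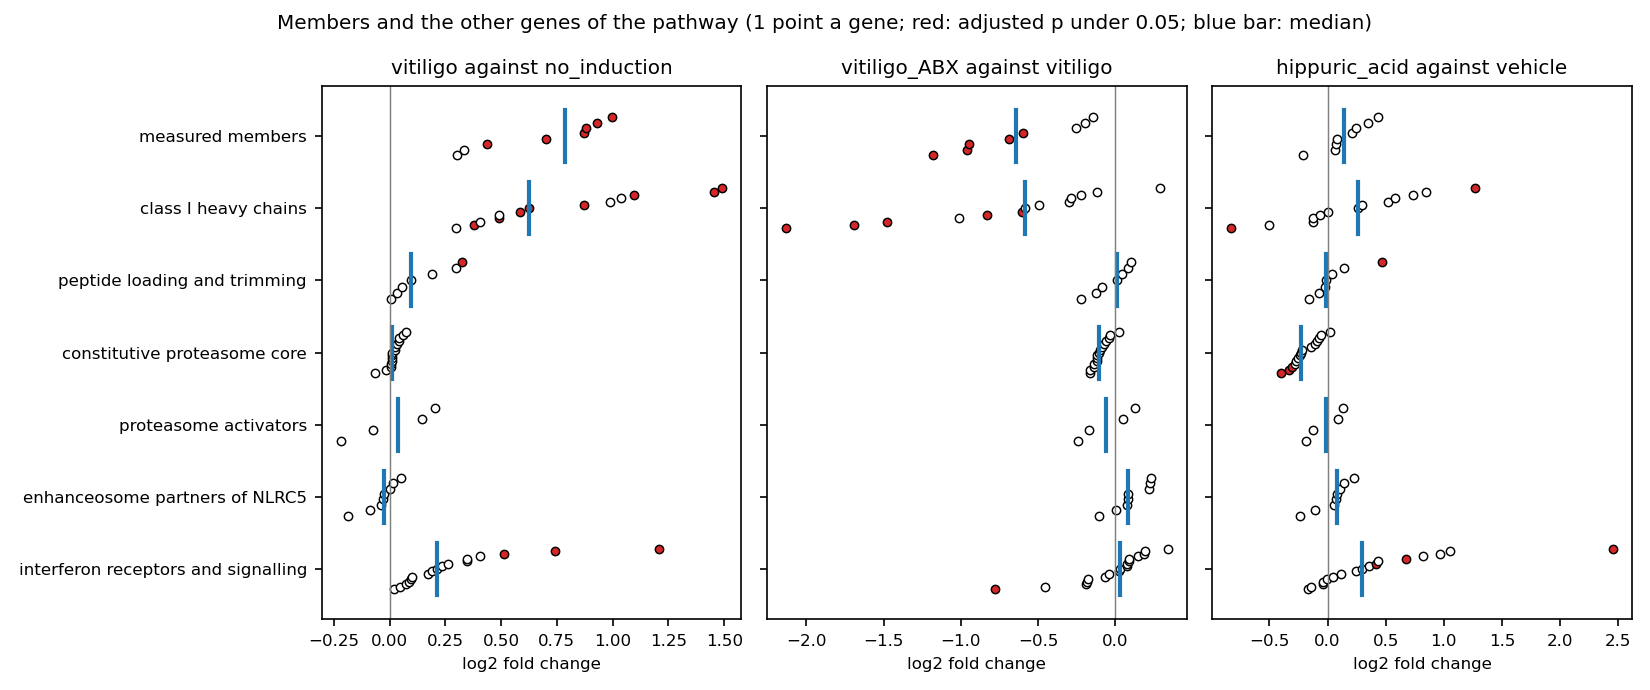
Log2 fold change (horizontal axis, a separate scale in each panel) of each tested gene (points) in the measured members and 6 lists of pathway genes (vertical axis) for 3 comparisons. Red points passed edgeR at an adjusted p under 0.05 and blue bars are medians: in vitiligo against no_induction the members' median lay at 0.79 and that of the 15 constitutive proteasome genes, Pomp included, at 0.01.

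Markers of other cell types also differed between these groups. Leukocyte markers rose for 3 of 6 genes (Ptprc, Coro1a and Cd52), and their sum ran from 97.3 to 367.6 CPM in vitiligo against 97.5 to 220.3 in no_induction. Markers of macrophages and dendritic cells rose for 2 of 10 genes (Itgax and Cd207), with sums of 155.5 to 946.7 against 214.1 to 624.7 CPM. None of 6 tested markers of T cells and cytotoxic lymphocytes passed edgeR. The 12 genes of their list summed to 7.81 to 24.3 against 7.57 to 13.1 CPM. All tested markers of these lists had positive log2 fold changes, with medians of 0.71, 0.66 and 0.71 in this order, beside 0.79 for the members. An unadjusted edgeR p under 0.05 was found for 6, 7 and 4 of them, and for 3658 of all 13826 genes tested. All 8 adipocyte markers rose (median log2 fold change 2.04), with sums of 1679 to 5159 against 408.0 to 1249 CPM. No defining marker of these lists was at 0 throughout a group. Their part in the rise of the members was not tested.

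ABX was next compared within induced mice, which asks whether depleting gut microbes alters vitiligo skin. Scaling factors (TMM) ran from 1.014 to 1.114 in the ABX and hippuric_acid libraries and from 0.878 to 1.007 in all others. In an edgeR fit of all 38 libraries, hippuric_acid and vitiligo_ABX differed in 1.72% of 14720 genes. The share was 7.15% against no_induction_ABX, 28.8% against vitiligo and 12.1% against vehicle. Whether something besides treatment sets these libraries apart was not tested. Such a difference cannot be told apart from effects of ABX or hippuric acid. The class I molecule, both immunoproteasome genes and Nlrc5 fell in vitiligo_ABX relative to vitiligo, to between 0.44 and 0.66 of the vitiligo level. In all, 5 of 8 members fell and none rose, against 13.1% of 14014 genes called, 8.05% of the tested genes downward. This comparison uses the same vitiligo libraries as the first, so the 2 sets of values are not independent. All 8 members had negative log2 fold changes (median -0.64, against 0.02 over all genes).

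B2m measured 207.6, 254.0 and 362.3 CPM (lowest, median, highest) in vitiligo_ABX libraries, beside 275.6, 537.6 and 838.1 CPM in vitiligo. All 6 lay below the vitiligo mean and the ranges overlapped. The log2 fold change was -0.95 ± 0.22 (n = 6 and 9, edgeR adjusted p = 0.00902). H2-K1 ran from 183.5 through 216.3 to 303.1 CPM, so that its highest value exceeded only the lowest vitiligo library. Its log2 fold change was -0.96 ± 0.18 (edgeR adjusted p = 0.00221).

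Psmb8 measured 16.97, 20.5 and 27.4 CPM with ABX and fell by 0.69 on the log2 scale (SE 0.21, edgeR adjusted p = 0.0385). That call was lost without any 1 of 5 vitiligo libraries (all but 001, 006, 062 and 063) or 5 vitiligo_ABX libraries (all but 003), with adjusted p up to 0.0871, and without the gastrointestinal library (adjusted p = 0.0674). Psmb10 measured 12.1, 13.7 and 20.4 CPM, with a log2 fold change of -0.60 ± 0.14 (edgeR adjusted p = 0.012). Nlrc5 measured 4.23, 7.68 and 10.4 CPM and had the largest change of the members, -1.18 ± 0.25 (edgeR adjusted p = 0.00481). For each of these genes all 6 ABX libraries lay below the vitiligo mean.

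Tap1 (-0.14 ± 0.15, edgeR adjusted p = 0.562, 95% interval -0.46 to 0.18), Tap2 (-0.26 ± 0.11, adjusted p = 0.115, interval -0.48 to -0.04) and Tapbp (-0.20 ± 0.12, adjusted p = 0.296, interval -0.45 to 0.06) did not pass. Without vitiligo library 001, Tap2 (-0.32, adjusted p = 0.00792) and Tapbp (-0.27, adjusted p = 0.0309) passed as well, making 7.

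Of the 13 other heavy chains, 5 fell, among them Cd1d1 (-1.69 ± 0.20, edgeR adjusted p = 3.64e-05), H2-Q10 (-2.13 ± 0.42, adjusted p = 0.00331), H2-Q7 (-1.48 ± 0.34, adjusted p = 0.00898) and H2-Q4 (-0.83 ± 0.19, adjusted p = 0.00904). None of the 15 constitutive proteasome genes passed edgeR or had an unadjusted p under 0.05 (median -0.11). Among interferon signalling genes only Irf8, 1 of 17, fell (-0.78 ± 0.25, adjusted p = 0.0432). All 8 adipocyte markers fell (median -3.89), with sums of 271.0 to 718.9 CPM in vitiligo_ABX, and 3 of 6 keratinocyte markers fell. None of 6 leukocyte markers passed edgeR (sums 156.3 to 235.9 CPM), nor did any of 10 markers of macrophages and dendritic cells, while Cd3g, 1 of 8 tested T cell markers, fell. All tested markers of these lists had negative log2 fold changes, with medians of -0.43, -0.26 and -0.79 in this order. An unadjusted edgeR p under 0.05 was found for 2, 1 and 3 of them, and for 4066 of all 14014 genes tested. The part of these markers in the members' fall was not tested.

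In mice without induction, Tapbp rose and Nlrc5 fell with ABX. These were the 2 calls among 8 members, a share near the background, since 31.1% of 13971 genes were called in this comparison, 15.4% upward and 15.8% downward. At an unadjusted edgeR p under 0.05 there were 5 of 8 members, beside 5933 of all 13971 genes tested. Of the 8 members, 6 had positive log2 fold changes (median 0.23). Tapbp measured 141.0, 145.7 and 177.0 CPM (lowest, median, highest) in no_induction_ABX and 94.1, 110.2 and 127.9 CPM in no_induction. Its ranges did not overlap, as was the case for 7.16% of genes tested, and with ABX higher for 2.73%. The log2 fold change was 0.45 ± 0.08 (n = 6 and 9, edgeR adjusted p = 0.000466).

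Nlrc5 stood lower with ABX, at 4.20, 6.69 and 8.56 CPM against 7.62, 8.54 and 11.1 CPM, with all 6 libraries below the control mean. Its log2 fold change was -0.42 ± 0.16 (edgeR adjusted p = 0.0467). The call was lost in 10 of 15 fits that left out 1 library, all but those without no_induction 001 or 022 or no_induction_ABX 002, 004 or 005 (adjusted p up to 0.105), and without the gastrointestinal library (adjusted p = 0.0539) or those with Y-linked transcripts (adjusted p = 0.0933). Tapbp and Nlrc5 thus differed in opposite directions in the same skin.

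Neither chain of the class I molecule passed here. B2m had a log2 fold change of 0.23 ± 0.10 (edgeR adjusted p = 0.093, 95% interval 0.02 to 0.45). It passed without no_induction 012 (0.28, adjusted p = 0.0325), without no_induction_ABX 003 (0.29, adjusted p = 0.0481) and without both libraries with Y-linked transcripts (0.31, adjusted p = 0.0262). H2-K1 stood at -0.01 ± 0.08 (adjusted p = 0.971, 95% interval -0.18 to 0.17). Tap2 was at 0.28 ± 0.12 (adjusted p = 0.0796) and passed without no_induction 002 (0.36, adjusted p = 0.0159). Tap1, Psmb8 and Psmb10 had values from 0.16 to 0.24 and adjusted p of 0.114 to 0.445.

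The counts of other genes stand beside the 31.1% of 13971 genes called in this comparison, 15.4% upward, and no test compared them with that share. Among interferon signalling genes, 4 of 17 rose, namely Irf7 (1.503 ± 0.317, edgeR adjusted p = 0.00241), Stat2 (0.63 ± 0.19, adjusted p = 0.0179), Jak2 (0.57 ± 0.08, adjusted p = 0.000103) and Ifnar1 (0.42 ± 0.08, adjusted p = 0.00135). Of 13 other heavy chains 4 rose, H2-T23 (0.58 ± 0.10, adjusted p = 0.00054) with the smallest p, and Erap1 and Lnpep rose among 7 loading and trimming genes. Here 3 of 6 leukocyte markers rose (sums 184.9 to 227.6 CPM), all 8 adipocyte markers fell (sums 241.8 to 468.7 CPM) and 3 of 6 keratinocyte markers fell. Their part was not tested.

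With ABX present in both groups, induction was accompanied by 1 call among the 8 members, against 4.97% of 13876 genes called, 1.25% of the tested genes downward. Tapbp fell from 141.0, 145.7 and 177.0 CPM to 102.4, 114.9 and 142.4 CPM, with a log2 fold change of -0.35 ± 0.09 (n = 6 and 6, edgeR adjusted p = 0.0448). This call was lost in 10 of 12 fits that left out 1 library, all but those without no_induction_ABX 006 or vitiligo_ABX 003 (adjusted p up to 0.105). B2m stood at -0.26 ± 0.14 (adjusted p = 0.311, 95% interval -0.55 to 0.04) and H2-K1 at -0.08 ± 0.11 (adjusted p = 0.743, interval -0.31 to 0.15). Psmb8 (0.02 ± 0.14, interval -0.28 to 0.32), Psmb10 (-0.12 ± 0.12, interval -0.38 to 0.15) and Nlrc5 (0.23 ± 0.23, interval -0.25 to 0.72) did not pass either.

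The interaction tested that difference directly, over the 30 libraries of the 4 groups: whether induction changed a gene differently with ABX than without. It was negative for all 8 members (median -0.80, against -0.03 over all genes). Of these, 6 passed edgeR, against 11.5% of 14310 genes called, 4.77% of the tested genes downward. The values were -1.20 ± 0.25 for B2m (edgeR adjusted p = 0.00276), -0.97 ± 0.20 for H2-K1 (adjusted p = 0.00261) and -0.66 ± 0.15 for Tapbp (adjusted p = 0.00436). They were -0.83 ± 0.22 for Psmb10 (adjusted p = 0.0139), -0.55 ± 0.16 for Tap2 (adjusted p = 0.0247) and -0.86 ± 0.27 for Psmb8 (adjusted p = 0.0351). In this test the effect of induction on these 6 genes was thus smaller or of opposite sign under ABX. With the library number as a block in the fit, none of the 14310 genes was called in the interaction.

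For Tapbp, the interaction joined a positive value without ABX and a fall with it. Nlrc5 had -0.78 ± 0.30 (edgeR adjusted p = 0.0865) and Tap1 -0.40 ± 0.20 (adjusted p = 0.183), and neither passed. Nlrc5 passed without vitiligo 001 (-0.87, adjusted p = 0.0226). Psmb8 was lost in 13 of 30 fits that left out 1 library (adjusted p up to 0.0697) and without the gastrointestinal libraries (adjusted p = 0.0744), and Tap2 without vitiligo_ABX 002 (adjusted p = 0.0535). With 1 surrogate variable in the fit, 3 of the 6 calls held, and those of Tap2, Psmb8 and Psmb10 did not. All 13 other heavy chains had negative values and 7 passed edgeR, led by Cd1d1 (-1.72 ± 0.24, adjusted p = 0.000309) and H2-Q4 (-1.38 ± 0.24, adjusted p = 0.000669). Of the constitutive proteasome genes 14 of 15 had negative values (median -0.11) and 1 passed, Psma6 (-0.27 ± 0.08, adjusted p = 0.0278). Of 17 interferon signalling genes 12 had negative values and 2 passed, Irf7 (-1.98 ± 0.56, adjusted p = 0.0196) and Jak2 (-0.50 ± 0.16, adjusted p = 0.0369). Negative interactions passed edgeR for 1 of 6 leukocyte markers (Ptprc), 1 of 10 macrophage and dendritic cell markers and 2 of 8 adipocyte markers. None of 8 tested T cell markers passed. Values were negative for all 6 leukocyte, all 8 T cell, 9 of 10 macrophage and dendritic cell and all 8 adipocyte markers. Their medians were -0.73, -0.73, -0.39 and -1.04 in this order, beside -0.80 for the members. An unadjusted edgeR p under 0.05 was found for 5, 1, 1 and 3 of them, and for 3932 of all 14310 genes tested. The part of these markers was not tested.

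Hippuric acid was compared with vehicle in wild type mice, which asks whether the metabolite itself alters skin. The scaling factors given above set the hippuric_acid libraries apart from the vehicle libraries too. None of the 8 members passed edgeR, DESeq2 or limma-voom, while 13.8% of 14097 genes were called in edgeR. An unadjusted p under 0.05 in edgeR was found for 1 member, Tap1, and for 4247 of the 14097 genes. B2m measured 364.1, 272.8 and 246.5 CPM in vehicle libraries 001, 002 and 003, and 412.2, 451.9, 230.4, 424.4 and 351.6 CPM in hippuric_acid libraries 1 to 5. The groups overlapped, since vehicle 001 was high and hippuric_acid 3 was lowest of all. The log2 fold change was 0.34 ± 0.21 (n = 5 and 3, edgeR adjusted p = 0.3, 95% interval -0.12 to 0.81).

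H2-K1 measured 295.1, 206.5 and 238.4 CPM with vehicle and 267.8, 290.9, 173.7, 315.9 and 251.3 CPM with hippuric acid. Its log2 fold change was 0.07 ± 0.18 (adjusted p = 0.819, 95% interval -0.33 to 0.48).

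Tap1 measured 24.3, 20.3 and 32.1 CPM with vehicle and 36.1, 36.6, 23.4, 39.5 and 37.7 CPM with hippuric acid, so that 4 of 5 libraries lay above every vehicle library. Its log2 fold change was 0.44 ± 0.19 (edgeR adjusted p = 0.147, 95% interval 0.02 to 0.85). Psmb8 measured 25.7, 17.2 and 16.8 CPM against 24.1, 29.0, 17.1, 27.4 and 20.9 CPM (0.25 ± 0.20, adjusted p = 0.433, interval -0.19 to 0.68). Psmb10 measured 24.4, 11.7 and 13.05 CPM against 18.4, 24.5, 15.1, 17.4 and 19.6 CPM (0.21 ± 0.24, adjusted p = 0.6, interval -0.32 to 0.73). Without vehicle 001, the vehicle library with Y-linked transcripts, Psmb10 passed (0.64, adjusted p = 0.028).

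Nlrc5 measured 9.56, 10.5 and 11.7 CPM with vehicle and 7.97, 12.5, 4.93, 9.57 and 10.5 CPM with hippuric acid. It was the 1 member with a negative value (-0.21 ± 0.25, edgeR adjusted p = 0.602, 95% interval -0.76 to 0.33). Tap2 (0.08 ± 0.17, interval -0.30 to 0.46) and Tapbp (0.07 ± 0.14, interval -0.23 to 0.37) lay near 0. Hippuric_acid library 3 was lowest of its group for all 8 members.

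Some pathway genes did pass after hippuric acid, in a comparison where 13.8% of 14097 genes were called. No test compared the lists with that share. Irf7 rose by 2.46 ± 0.57 (edgeR adjusted p = 0.025), Jak2 by 0.42 ± 0.11 (adjusted p = 0.0283) and Socs3, an inhibitor of cytokine signalling, by 0.67 ± 0.16 (adjusted p = 0.0187), making 3 of 17 interferon signalling genes. Of 13 other heavy chains 1 rose, the nonclassical H2-T24 (1.27 ± 0.38, adjusted p = 0.0492), and 1 fell, Cd1d1 (-0.83 ± 0.20, adjusted p = 0.0221). Of 7 loading and trimming genes 1 rose, Erap1 (0.47 ± 0.13, adjusted p = 0.0341). None of the 4 proteasome activator genes or the 8 promoter partners of NLRC5 passed edgeR. Of the constitutive proteasome genes 3 of 15 fell: Psma6 (-0.33 ± 0.08, adjusted p = 0.0252), the assembly factor Pomp (-0.40 ± 0.10, adjusted p = 0.0268) and Psmb7 (-0.31 ± 0.08, adjusted p = 0.0286). In the same libraries all 8 adipocyte and 5 of 6 keratinocyte markers fell, with sums of 284.5 to 782.5 against 1421 to 1844 CPM for adipocytes and 11457 to 15007 against 29922 to 42668 CPM for keratinocytes. Of the leukocyte markers 1 of 6 rose, Ptprc, as did 1 of 10 markers of macrophages and dendritic cells. None of 6 tested T cell markers passed edgeR. In these 3 lists, 6, 8 and 4 markers had positive log2 fold changes, with medians of 0.52, 0.30 and 0.16. An unadjusted edgeR p under 0.05 was found for 3, 4 and 0 of them, and for 4247 of all 14097 genes tested. The part of all these markers was not tested.

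Ordered by mean level, the vitiligo group stood highest for 6 members: B2m, H2-K1, Tap2, Psmb8, Psmb10 and Nlrc5. For Tap1 the hippuric_acid group was highest (34.6 ± 6.44 CPM, SD, n = 5) and for Tapbp the no_induction_ABX group (150.4 ± 13.3 CPM, n = 6). Over the 40 pairs of neighbouring groups in these orders, 2 differed in an edgeR fit of all 38 libraries. Both were the step from hippuric_acid to vitiligo, a contrast in which 28.8% of 14720 genes were called, for H2-K1 (259.9 ± 54.0 to 441.2 ± 123.5 CPM, 0.77 ± 0.16, adjusted p = 0.000366) and Psmb8 (23.7 ± 4.84 to 33.8 ± 11.6 CPM, 0.51 ± 0.20, adjusted p = 0.0495).

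For B2m the order from low to high was vitiligo_ABX (266.3 ± 55.4 CPM), no_induction (275.6 ± 35.9), vehicle (294.5 ± 61.7), no_induction_ABX (321.5 ± 46.3), hippuric_acid (374.1 ± 88.3) and vitiligo (515.8 ± 184.6). The last step was 0.47 ± 0.19 (edgeR adjusted p = 0.0611). For Nlrc5 the order was no_induction_ABX (6.60 ± 1.97 CPM), vitiligo_ABX (7.67 ± 2.26), no_induction (8.91 ± 1.02), hippuric_acid (9.09 ± 2.85), vehicle (10.6 ± 1.05) and vitiligo (17.5 ± 6.05). Its last step, 0.73 ± 0.27, had an adjusted p of 0.373 in a contrast where 0 of 14720 genes (0%) were called in edgeR. The SD of Nlrc5 in vitiligo was thus several times that in no_induction, and the same spread was seen for B2m.

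**Figure D4:**
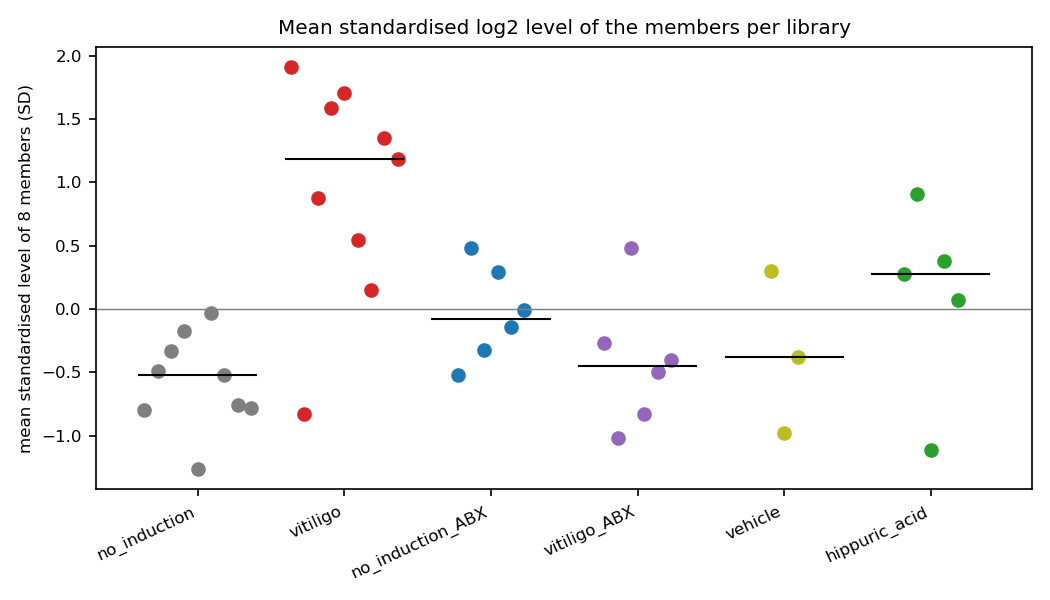
Mean over the 8 members of the standardised log2 level (vertical axis, in SD over the 38 libraries) in each library (points), with the group median as a black line. Among vitiligo libraries, 8 lay between 0.15 and 1.91 and library 001 at -0.83, and hippuric_acid library 3 lay at -1.12.

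Within groups, the members varied together to different degrees. After each group's mean was taken out, Pearson's r between pairs of members over the 38 libraries ran from 0.26 for Tap1 and B2m to 0.79 for Psmb8 and Psmb10, with a median of 0.59 over 28 pairs. H2-K1 was closest to the mean of the other members (r = 0.87) and Tap1 was farthest from it (r = 0.59). B2m correlated with H2-K1 at 0.78 and with Psmb8 at 0.78. The libraries share their depth, cell makeup and scaling across genes, so these values describe the libraries only. The members' mean standardised deviation was lowest of all 38 libraries in vitiligo 001 (-2.43) and highest in vitiligo 000 (1.38). Such libraries weigh heavily in r, here and for the genes named next, and r without them was not computed.

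Outside the members, the genes whose deviations were most like the members' mean were H2-T22 (r = 0.87), Shisa5 (0.87), Ifi47 (0.86), H2-T23 (0.85), Irgm2 (0.84), Ly6e (0.84), Ifitm3 (0.84) and H2-Eb1 (0.84), among 13161 genes and over the 38 libraries. H2-T22 and H2-T23 are nonclassical heavy chains, H2-Eb1 is a class II chain, Ifi47 and Irgm2 encode interferon-inducible GTPases, and Ly6e and Ifitm3 are interferon-induced genes.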

How the data were processed

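The labels' protocols describe oligo(dT) selection and a NEBNext Ultra kit for the 38 tail skin libraries. Tools listed in the submitters' processing notes are StringTie 1.3.1, HISAT2, DESeq2 and Bowtie2 2.2.8, with no role for each. The genome build, counting program and use of strand are not given in the sources used here. The authors deposited 1 table of expected counts per gene, from a counting step that the labels leave unnamed. In it 16.2% of genes held a value that was not whole. Values were rounded, which changed a library's total by at most 22.1 counts. Of 19220 rows, 1 incomplete row and 1 row without a symbol, with 0% of counts, were left out.

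Each difference came from a two-sided quasi-likelihood test (edgeR 4.0.16, run in R 4.3.3) after TMM scaling and the tool's own low-count filter, fitted robustly to those groups alone. Calls were made at a Benjamini-Hochberg adjusted p under 0.05 over all genes tested, and every adjusted p comes from this test unless another tool is named. SEs were derived from the F statistic. CPM used TMM-scaled totals over all libraries, and exon lengths came from GENCODE M21. All 10 members are described in every comparison where measured. Of each pathway list, up to 4 genes with the smallest p were named, and others with the count of their list. The members and lists were chosen with earlier results of these data known. Genes most like the members were the 8 with the highest r on log2(CPM + 1), leaving out genes that averaged under 1 CPM, provisional genes, pseudogenes and immune receptor segments. The code was tested on simulated data. Every pair of replicate libraries differed by more than counting noise, with a chi-square of at least 7.33 per degree of freedom.

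Alternatives were RLE size factors, no and a stricter low-count filter, DESeq2 1.42.0, weighted limma-voom (limma 3.58.1), a fit of all libraries together, 1 surrogate variable from sva 3.50.0, the library number as a block, a fold limit of 1.5, and leaving out libraries.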

Additional observations from a re-analysis of the deposited data

Results flagged for a closer look

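Of 40 sets of 4 to 10 libraries (1 member in 1 group), 5 held a library far from the others by Dixon's criterion, where chance gives about 1 in 20. Tap2 measured 22.2 CPM in vitiligo library 001, against 31.1 to 39.5 CPM in the other 8. Tapbp measured 79.5 CPM in the same library, against 129 to 152 CPM. Tapbp also stood apart in no_induction_ABX library 002, at 177.0 CPM against 141 to 149 CPM. Tap1 measured 23.4 CPM in hippuric_acid library 3, against 36.1 to 39.5 CPM, and Psmb10 measured 20.4 CPM in vitiligo_ABX library 003, against 12.1 to 14.8 CPM.

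The effect of induction differed with ABX for 6 members, by the test of the interaction in edgeR: B2m (-1.20, adjusted p = 0.00276), H2-K1 (-0.97, adjusted p = 0.00261), Tap2 (-0.55, adjusted p = 0.0247), Tapbp (-0.66, adjusted p = 0.00436), Psmb8 (-0.86, adjusted p = 0.0351) and Psmb10 (-0.83, adjusted p = 0.0139). The limits given above apply: the calls of Tap2, Psmb8 and Psmb10 did not hold with 1 surrogate variable. That of Psmb8 was lost in 13 of 30 fits that left out 1 library. With the library number as a block, none of the 14310 genes was called.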

How the results depend on the processing

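The 20 calls of single members kept their direction in all 612 values compared (1 call under 1 setting each). These include the fold limit, where the estimate cannot change, and many fits that left out 1 library. Some fits repeat each other: for vitiligo_ABX against vitiligo, leaving out the gastrointestinal library is leaving out vitiligo 000. RLE size factors, the stricter filter and DESeq2 changed no member's call. Leaving out 1 library gave 5 to 8 members called higher for vitiligo against no_induction, 4 to 7 lower for vitiligo_ABX against vitiligo, and 4 to 7 lower for the interaction. For no_induction_ABX against no_induction it gave 1 to 2 higher and 0 to 1 lower, for vitiligo_ABX against no_induction_ABX 0 to 1 lower, and for hippuric_acid against vehicle 0 to 1 higher. The members called lower in no_induction_ABX fell from 1 to 0 with all 38 libraries in 1 fit, with no filter, without the gastrointestinal libraries, without the libraries with Y-linked transcripts (Y-linked libraries) and with the fold limit. The members called higher there numbered 4 with limma-voom, 2 without the Y-linked libraries and 0 with the fold limit. The fold limit left 0 members lower in vitiligo_ABX against no_induction_ABX. For hippuric acid 1 member was called higher without the Y-linked libraries. With 1 surrogate variable 3 members were called in the interaction, and Tap2 was not called in vitiligo against no_induction. The cause was not tested.

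Counts over all genes (higher and lower calls) also moved by more than 1.5 times. Vitiligo against no_induction gave 728 and 342 in the edgeR test, 1016 and 728 in DESeq2, 3162 and 2732 in limma-voom, 957 and 726 with all 38 libraries, 460 and 159 with 1 surrogate variable, 429 and 161 without the gastrointestinal libraries and 761 and 609 without the Y-linked libraries. Leaving out 1 library gave 523 (without no_induction 023) to 1578 higher and 161 (without vitiligo 047) to 993 lower (both highest without vitiligo 001). Vitiligo_ABX against vitiligo gave 709 and 1128, 2239 and 2160 in limma-voom, 1206 and 1605 with all libraries, 1310 and 1515 with 1 surrogate variable, 64 and 91 with the replicate block, 1346 and 1457 without vitiligo 001 and 409 and 774 without vitiligo_ABX 004. No_induction_ABX against no_induction gave 2150 and 2201, 3358 and 3209 in limma-voom and 618 and 817 with the block. Vitiligo_ABX against no_induction_ABX gave 516 and 173, 824 and 459 in DESeq2, 957 and 573 in limma-voom, 657 and 280 with all libraries, 829 and 356 with 1 surrogate variable, 180 and 48 without no_induction_ABX 002 and 293 lower without no_induction_ABX 006. Hippuric_acid against vehicle gave 772 and 1168, 1825 and 1826 with 1 surrogate variable, 463 and 424 with the block, 1445 and 1341 without vehicle 001, 399 higher without hippuric_acid 1 and 733 lower without hippuric_acid 3. The interaction gave 956 and 683, 2135 and 2310 in limma-voom, 547 and 321 with 1 surrogate variable, 0 and 0 with the block, 1473 and 1206 without vitiligo 001 and 448 lower without no_induction_ABX 005. The fold limit gave 479 and 76, 339 and 669, 879 and 861, 325 and 65, and 496 and 674 in the first 5, in this order.

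Libraries with the same number share only the number: their deviations correlated at 0.10 to 0.17 in 2 pairs (vitiligo_ABX and vitiligo), -0.15 to 0.39 in 4 (no_induction_ABX and no_induction), -0.04 to 0.37 in 6 (both ABX groups) and -0.09 to 0.18 in 3 (hippuric_acid and vehicle), and 2 of 4, 2 of 6 and 2 of 3 libraries correlated best with their own number in the last 3. With the replicate block, 0 members were called lower in the first 3 of these group pairs and in the interaction. No paired analysis was possible for vitiligo against no_induction because they share fewer than 2 numbers.

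Among members without a call, those that changed sign were, with the replicate block, Tap1 (0.046), Tap2 (0.038) and Tapbp (0.17) in vitiligo_ABX against vitiligo, H2-K1 (0.032) and Psmb8 (-0.12) in no_induction_ABX against no_induction, and H2-K1 (-0.036) for hippuric acid. H2-K1 was at 0.021 in no_induction_ABX without the Y-linked libraries. With limma-voom, Psmb8 (-0.018) and Nlrc5 (-0.045) turned in vitiligo_ABX against no_induction_ABX. Leaving out 1 library gave ranges of -0.034 to 0.043 for H2-K1 in no_induction_ABX, -0.19 to 0.026 for Tap1 and -0.085 to 0.10 for Psmb8 in vitiligo_ABX against no_induction_ABX, and, for hippuric acid, -0.051 to 0.25 for H2-K1, -0.041 to 0.21 for Tap2, -0.071 to 0.22 for Tapbp and -0.0039 to 0.64 for Psmb10. Depth limits Nlrc5 most (77 counts at least).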
